A study of Mus musculus with 16 samples.

Results

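The 31 odorant receptor genes described here carry the numbers Olfr161 to Olfr209 and lie on mouse chromosome 16. They were drawn from the annotated probe sets by number, of which 34 of the 49 in this range had a probe set and pseudogene symbols were not taken. Olfr165, Olfr183 and Olfr195, each of which passed in an odor comparison, were then left out. The 31 are a small share of the 1080 odorant receptor probe sets and of the 22206 probe sets tested. The current RefSeq gene table places all 31 on chromosome 16, but not in a single cluster. Olfr161 stands alone beside Mefv, and 7 of the receptors, Olfr164 and Olfr166 to Olfr171, lie with Olfr165 in a stretch of 339.3 kb between Hira and Lamp3. The other 23 lie with Olfr183 and Olfr195 in a stretch of 602.1 kb between Cldnd1 and Gabrr3. By the older MOR names, which group receptors by sequence, the long stretch holds 7 MOR184, 6 MOR183 and 10 MOR182 receptors. Olfr193 was put in family MOR183 by hand, while the other families were read from the names. Olfr196 of MOR183 lies past Olfr194 of MOR182.

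Odorant receptors are G protein-coupled receptors of the olfactory sensory neurons, and a mature neuron transcribes mainly a single receptor gene from a single allele. Receptor genes sit in clusters along the chromosomes, and neighbours are often close relatives that arose by duplication. Odor binding starts a cascade through the G protein subunit encoded by Gnal, the adenylyl cyclase Adcy3 and a cyclic nucleotide-gated channel, and the resulting activity of a neuron raises its S100a5 transcript. A receptor whose RNA is more abundant in cells with a high S100a5 reporter is therefore read, in this type of assay, as a receptor of recently active neurons.

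All mice carried the S100a5-tauGFP reporter, which by its name ties green fluorescence to the S100a5 gene, so the vehicle controls carry it too. Cells dissociated from the olfactory mucosa were sorted by fluorescence into 4 groups of 4 arrays: odor GFP+, odor GFP-, vehicle GFP+ and vehicle GFP-. Each odor pool was exposed to 1-pentanethiol, a thiol, and each vehicle pool to filtered air, in pulses of 10 s every 20 min from hour 26 of a stay of 40 h in a chamber. A pool held 3 mice of both sexes aged 7 to 12 weeks, and each of the 8 pools gave a GFP+ and a GFP- array, so a value is that of a pool and not of an animal. The design text of the series names bourgeonal as the odor, while the title and all sample labels name 1-pentanethiol, which is used here. The vehicle pools show what the sort does without the odor. The odor pools show the sort with the odor present, so an odor effect is read from their difference to the vehicle pools.

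The values are log2 signals of Clariom S arrays, so a difference of 1 is a doubling of signal. S100a5 itself was higher in GFP+ than in GFP- cells by 0.99 ± 0.12 in the odor pools and by 0.87 ± 0.12 in the vehicle pools (± SE of the fit, as in all differences given with an error here; adjusted p = 7.79e-06 and 3.51e-05). Omp, the marker of mature olfactory sensory neurons, had group means of 18.35, 18.32, 18.32 and 18.27 in odor GFP+, odor GFP-, vehicle GFP+ and vehicle GFP- cells, so the labelled tissue carried its defining marker in every group. Negative control probes, which match no transcript, had a median of 6.25 over all arrays. Their array medians were 6.22 to 7.28 on GFP+ arrays and 5.99 to 6.12 on GFP- arrays, and the highest value belonged to replicate 2 of the vehicle GFP+ group.

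Reference sequence was available for 25 of the 31 receptors as the 250 bases before the annotated gene start (RefSeq, GRCm38.p6). In 19 of them the gene model spans at most 1200 bases, about the length of the single coding exon of such a receptor. For these the window lies before the coding start rather than at a known transcription start. Over the 300 pairs of windows the median identity was 48.1% over whole alignments, and the 2 most alike pairs are shown. In the sort the receptors of the first pair below parted, while those of the second moved together. Olfr169 (chr16:19566882-19567131, minus strand) and Olfr170 (chr16:19606667-19606916, minus strand) were 92.5% identical over the whole alignment and shared 94.4% of the 248 positions between the unmatched ends. Olfr191 (chr16:59086482-59086731, minus strand) and Olfr193 (chr16:59110634-59110883, minus strand) were 79.3% identical over the whole alignment and shared 97.3% of 225 positions once the 26 bases by which their annotated starts are offset were set aside. Capitals mark the bases that differ within the aligned stretch, 5′ to 3′.
Olfr169: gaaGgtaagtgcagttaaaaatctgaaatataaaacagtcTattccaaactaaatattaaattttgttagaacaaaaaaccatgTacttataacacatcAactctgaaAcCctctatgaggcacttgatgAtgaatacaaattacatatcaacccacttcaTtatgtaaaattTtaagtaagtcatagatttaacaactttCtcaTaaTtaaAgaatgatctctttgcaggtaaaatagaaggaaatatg
Olfr170: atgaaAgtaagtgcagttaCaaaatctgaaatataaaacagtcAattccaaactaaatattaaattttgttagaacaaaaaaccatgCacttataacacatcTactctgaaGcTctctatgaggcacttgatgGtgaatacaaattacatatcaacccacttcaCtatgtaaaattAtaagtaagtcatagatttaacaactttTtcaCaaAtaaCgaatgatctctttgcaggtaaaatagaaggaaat
Olfr191: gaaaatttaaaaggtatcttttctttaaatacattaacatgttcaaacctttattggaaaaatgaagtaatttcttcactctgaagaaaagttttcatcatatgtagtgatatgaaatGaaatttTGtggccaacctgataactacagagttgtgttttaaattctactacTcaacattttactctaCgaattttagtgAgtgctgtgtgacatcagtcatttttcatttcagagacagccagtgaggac
Olfr193: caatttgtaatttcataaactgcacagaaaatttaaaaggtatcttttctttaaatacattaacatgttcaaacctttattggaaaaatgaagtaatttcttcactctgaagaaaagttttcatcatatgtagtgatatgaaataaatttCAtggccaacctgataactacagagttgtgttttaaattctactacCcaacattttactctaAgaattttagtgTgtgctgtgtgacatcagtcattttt
The 14 differing positions of the first pair are spread along the window, whereas the 6 of the second pair leave a long identical run at the 5′ side. Where the array's probes lie relative to these windows was not checked, and whether probes of near-identical receptors share signal was not tested.

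Signal was above the negative controls for nearly all of these receptors. Averaged over the 16 arrays, 29 of the 31 lay above the negative control median, and the exceptions were Olfr161 and Olfr172. Olfr161, the isolated receptor, had 5.45 to 6.11 in odor GFP+, 5.98 to 7.70 in odor GFP-, 5.45 to 6.09 in vehicle GFP+ and 5.53 to 6.21 in vehicle GFP- cells, of which replicate 3 of odor GFP- was the only value clearly above that level. Olfr172 had group means of 6.24, 6.01, 5.84 and 5.96 in the same order. In vehicle GFP+ replicate 2, where the negative controls were highest, Olfr173 and Olfr202 also lay below that array's own negative control median. Neither Olfr161 nor Olfr172 can be told from nonspecific signal in most groups, so the absence of a call for them says little.

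**Figure D1:**
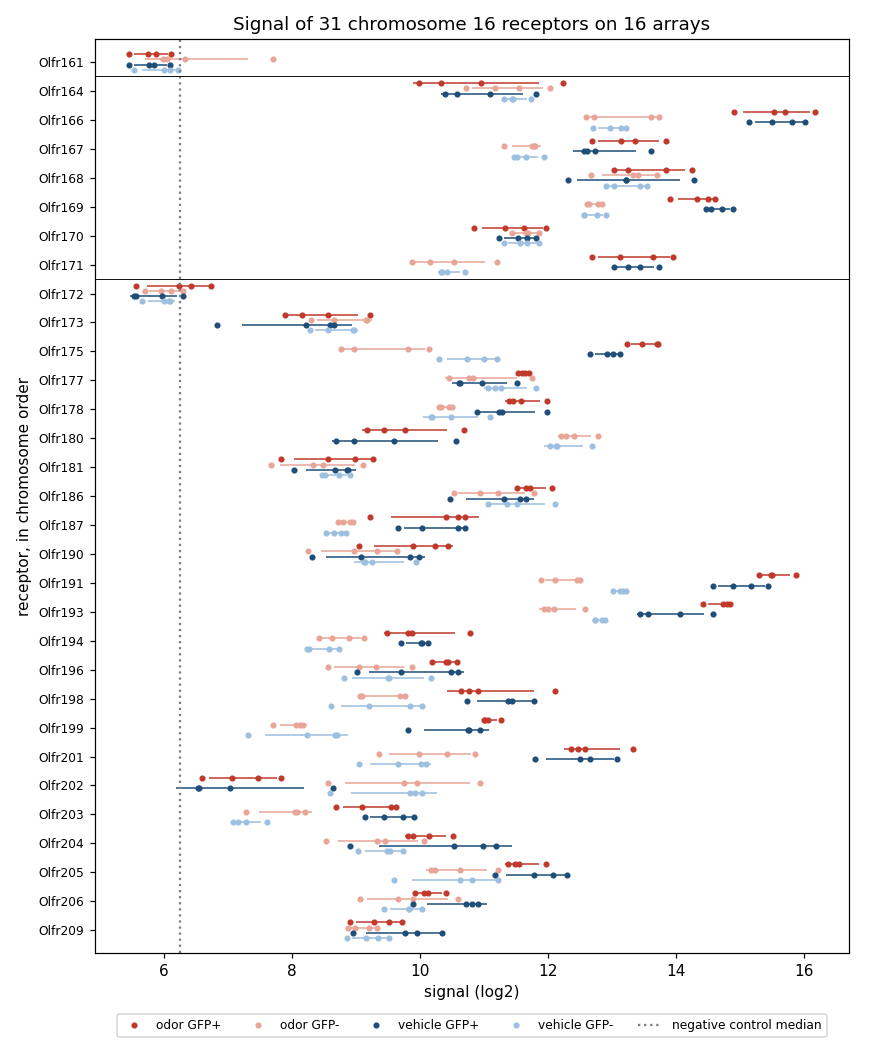
Signal of each of the 31 receptors (log2, horizontal axis) in chromosome order (vertical axis); each point is an array, lines are the mean ± SD of 4 arrays of a group, and the dotted line is the negative control median of 6.25. Thin black lines separate the 3 stretches. Levels of different receptors come from different probes and should not be set against each other. Within a receptor the GFP+ groups lie right of the GFP- groups for Olfr166, Olfr171, Olfr175 and Olfr191 and left of them for Olfr180. For Olfr202 the GFP+ group lies left in the odor pools, while the fractions overlap in the vehicle pools.

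The sort separated these receptors mostly in the same direction. In the odor pools 16 of the 31 were higher in GFP+ than in GFP- cells and 2 were lower (limma, adjusted p under 0.05), where 11.3% of all tested probe sets were higher and 11.9% lower. In the vehicle pools the counts were again 16 higher and 2 lower, beside 9.34% and 11.8% of all probe sets. Odorant receptors as a whole are separated by this sort far more often than other genes, so they are the closer yardstick: 396 of the 1080 were higher and 294 lower in the odor pools, and 399 and 264 in the vehicle pools. The median difference of the 31 was 1.03 in the odor pools and 0.87 in the vehicle pools, beside 0.26 and 0.26 over all receptors and 0.13 and 0.11 over all tested probe sets. Without replicate 2 of the vehicle GFP+ group, whose negative controls stood apart, 18 were higher and 2 lower in the vehicle pools. In bulk RNA of sorted cells, fewer neurons with a receptor and less of its RNA per neuron cannot be told apart.

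The same receptors made up most of both counts. 15 were higher in GFP+ cells under both stimuli: Olfr166, Olfr167, Olfr169 and Olfr171 of the middle stretch, Olfr175 and Olfr178 of MOR184, Olfr187, Olfr191 and Olfr193 of MOR183, and Olfr194, Olfr198, Olfr199, Olfr201, Olfr203 and Olfr205 of MOR182. Olfr196 passed in the odor pools and Olfr206 in the vehicle pools, Olfr180 and Olfr202 were lower under both, and 12 receptors passed under neither. The fractions did not overlap for 16 higher and 2 lower receptors in the odor pools, beside 14.4% and 12.3% of all probe sets, and for 13 higher and 1 lower in the vehicle pools, beside 11.7% and 12.0%. Pool by pool, 16 receptors were higher in the GFP+ fraction of all 8 pools and 2 were lower in all 8. That count was not made over all probe sets, so it describes these receptors and does not set them apart. Across the 31 receptors the odor and vehicle sort differences, which come from separate mice, correlated with r = 0.900 (Spearman 0.890), given as a description because the receptors share arrays and pools.

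**Figure D2:**
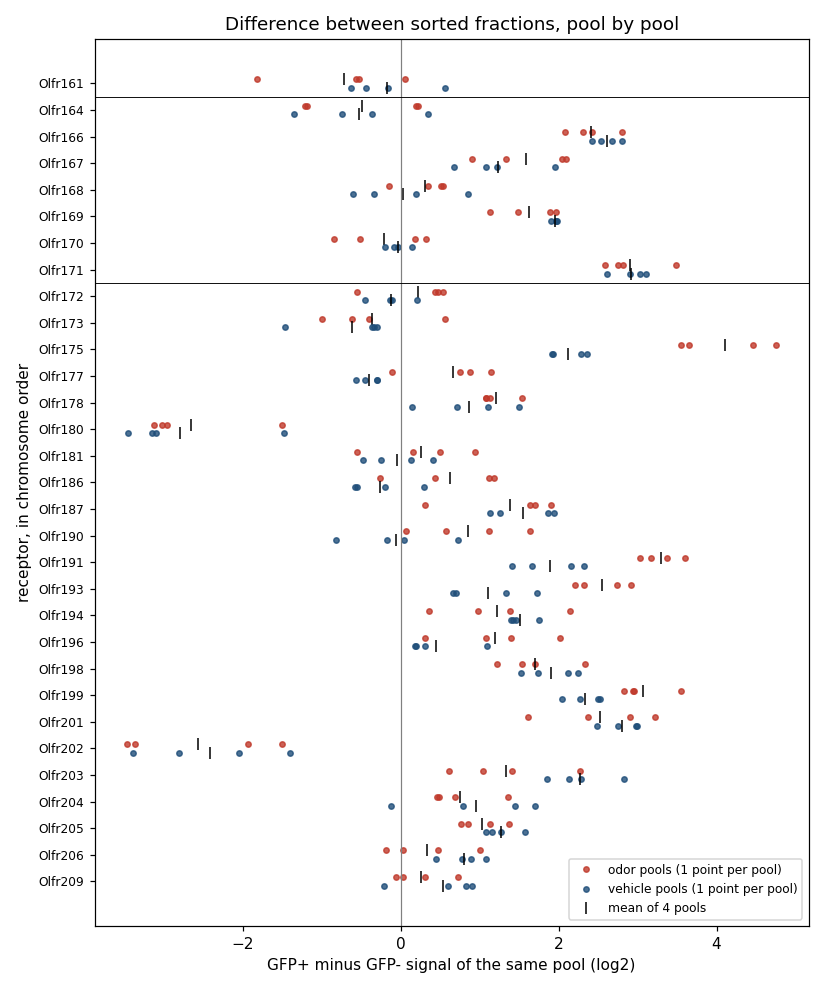
GFP+ minus GFP- signal of the same pool (log2, horizontal axis) for the 31 receptors in chromosome order (vertical axis); each point is a pool, odor pools red and vehicle pools blue, and the black tick is the mean of 4 pools. All 8 points lie right of 0 for 16 receptors and left of 0 for Olfr180 and Olfr202, and the red points of Olfr175, Olfr191 and Olfr193 lie right of the blue ones.

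In the middle stretch, 4 of the 7 receptors were higher in GFP+ cells under both stimuli. Olfr171 of MOR273 had 13.96, 13.12, 12.68 and 13.63 in odor GFP+ against 11.20, 10.53, 9.87 and 10.15 in odor GFP- cells, and 13.24, 13.03, 13.73 and 13.44 in vehicle GFP+ against 10.34, 10.41, 10.70 and 10.33 in vehicle GFP- cells. The fractions did not overlap under either stimulus, and the differences of 2.91 ± 0.28 (adjusted p = 4.00e-07) and 2.92 ± 0.28 (adjusted p = 4.01e-07) amount to 7.51-fold and 7.55-fold. Olfr166, the sole MOR270 receptor here, had 16.16, 15.52, 15.69 and 14.90 in odor GFP+ against 13.74, 12.72, 13.61 and 12.59 in odor GFP- cells, and 16.02, 15.50, 15.81 and 15.13 in vehicle GFP+ against 13.22, 12.96, 13.13 and 12.71 in vehicle GFP- cells. Its differences were 2.40 ± 0.29 (adjusted p = 5.51e-06) with the odor and 2.61 ± 0.29 (adjusted p = 2.15e-06) with vehicle, again with no overlap. Olfr167 of MOR272 passed with differences of 1.59 and 1.23, while Olfr168 of MOR271 and Olfr164 of MOR279 passed under neither stimulus. Their differences were 0.31 and 0.03 for Olfr168 and -0.49 and -0.52 for Olfr164.

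Olfr169 and Olfr170, the neighbours whose windows are printed above, went separate ways in the sort. Olfr169 had 14.32, 14.61, 13.90 and 14.50 in odor GFP+ against 12.84, 12.64, 12.77 and 12.61 in odor GFP- cells, and 14.54, 14.88, 14.72 and 14.46 in vehicle GFP+ against 12.56, 12.90, 12.76 and 12.55 in vehicle GFP- cells. These are differences of 1.62 ± 0.15 (adjusted p = 3.39e-07) and 1.96 ± 0.15 (adjusted p = 3.88e-08). Olfr170 had 11.97, 11.33, 10.84 and 11.62 in odor GFP+ against 11.65, 11.85, 11.68 and 11.43 in odor GFP- cells, and 11.67, 11.81, 11.53 and 11.24 in vehicle GFP+ against 11.86, 11.66, 11.56 and 11.32 in vehicle GFP- cells. Here the fractions overlapped and the differences were -0.21 ± 0.20 (adjusted p = 0.473) and -0.04 ± 0.20 (adjusted p = 0.915). Within a pool the sort difference of Olfr169 was 1.13 to 1.99 and that of Olfr170 -0.84 to 0.32, so it was larger for Olfr169 in 8 of 8 pools. The difference between the receptors was not put to a test of its own, and over the 16 arrays their signals correlated with r = -0.11.

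The 7 MOR184 receptors spanned the range of the sort, with 2 higher in GFP+ cells, 1 lower and 4 that passed under neither stimulus. Olfr175 had 13.70, 13.23, 13.47 and 13.72 in odor GFP+ against 10.14, 8.76, 9.82 and 8.96 in odor GFP- cells, and 13.12, 12.65, 13.01 and 12.92 in vehicle GFP+ against 11.21, 10.30, 10.73 and 11.00 in vehicle GFP- cells. It was higher in GFP+ cells by 4.11 ± 0.26 (adjusted p = 4.23e-09), or 17.2-fold, in the odor pools and by 2.12 ± 0.26 (adjusted p = 9.17e-06), or 4.34-fold, in the vehicle pools, with no overlap between fractions. Olfr180 ran the other way, with 9.76, 9.16, 10.69 and 9.44 in odor GFP+ against 12.78, 12.28, 12.19 and 12.40 in odor GFP- cells, and 9.59, 8.96, 10.55 and 8.69 in vehicle GFP+ against 12.69, 12.12, 12.02 and 12.13 in vehicle GFP- cells. All 4 GFP+ values lay below all 4 GFP- values under each stimulus, and the differences were -2.65 ± 0.35 (adjusted p = 1.87e-05) and -2.79 ± 0.35 (adjusted p = 1.05e-05). Olfr178 passed under both stimuli at 1.21 and 0.87, and Olfr172, Olfr173, Olfr177 and Olfr181 passed under neither. With the pool of mice as a block, which takes account of both fractions coming from the same animals, Olfr177 also passed in the odor pools at 0.67 (adjusted p = 0.0219).

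None of the 6 MOR183 receptors was lower in GFP+ cells by the test. Olfr191 had 15.48, 15.49, 15.29 and 15.88 in odor GFP+ against 12.45, 11.89, 12.12 and 12.51 in odor GFP- cells, and 15.44, 14.88, 15.16 and 14.58 in vehicle GFP+ against 13.12, 13.22, 13.01 and 13.17 in vehicle GFP- cells. Olfr193, whose window is nearly identical over the shared stretch, had 14.79, 14.73, 14.42 and 14.85 in odor GFP+ against 12.58, 12.00, 12.09 and 11.93 in odor GFP- cells, and 14.58, 13.43, 14.07 and 13.56 in vehicle GFP+ against 12.85, 12.73, 12.74 and 12.89 in vehicle GFP- cells. Both receptors were separated without overlap under each stimulus, Olfr191 by 3.29 ± 0.18 (adjusted p = 9.04e-10) and 1.89 ± 0.18 (adjusted p = 5.36e-07) and Olfr193 by 2.55 ± 0.21 (adjusted p = 7.86e-08) and 1.11 ± 0.21 (adjusted p = 7.66e-04) in the odor and vehicle pools. Their signals correlated over the 16 arrays with r = 0.971, and Olfr191 had the larger sort difference in 8 of 8 pools. Olfr187 passed under both stimuli at 1.39 and 1.55. Olfr196 passed in the odor pools at 1.20 ± 0.34 (adjusted p = 0.0164) and not in the vehicle pools at 0.44 ± 0.34 (adjusted p = 0.383), a difference between stimuli that did not itself pass (gain 0.76 ± 0.48, adjusted p = 0.999). Olfr186 and Olfr190 passed under neither, although Olfr190 did with the pool block in the odor pools (adjusted p = 0.0427).

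The 10 MOR182 receptors held 6 with higher signal in GFP+ cells in the odor pools and 7 in the vehicle pools, and 1 with lower signal. Olfr199 had 11.07, 11.26, 11.00 and 11.02 in odor GFP+ against 8.13, 7.71, 8.17 and 8.06 in odor GFP- cells, and 10.93, 9.82, 10.74 and 10.76 in vehicle GFP+ against 8.67, 7.32, 8.70 and 8.23 in vehicle GFP- cells. Olfr201 had 12.47, 12.58, 12.36 and 13.33 in odor GFP+ against 10.86, 9.36, 9.99 and 10.42 in odor GFP- cells, and 12.50, 11.79, 12.65 and 13.07 in vehicle GFP+ against 10.01, 9.05, 9.65 and 10.09 in vehicle GFP- cells. The fractions were apart under each stimulus for both, by 3.07 ± 0.27 (adjusted p = 1.72e-07) and 2.34 ± 0.27 (adjusted p = 4.17e-06) for Olfr199 and by 2.53 ± 0.33 (adjusted p = 1.51e-05) and 2.80 ± 0.33 (adjusted p = 4.62e-06) for Olfr201. Olfr198 differed by 1.70 ± 0.34 (adjusted p = 0.00130) and 1.91 ± 0.34 (adjusted p = 4.49e-04), from pool values of 1.23 to 2.34 with the odor and 1.53 to 2.24 with vehicle. Olfr203 had 9.09, 9.55, 8.69 and 9.62 in odor GFP+ against 8.05, 7.28, 8.07 and 8.20 in odor GFP- cells, and 9.74, 9.13, 9.44 and 9.91 in vehicle GFP+ against 7.61, 7.28, 7.15 and 7.08 in vehicle GFP- cells. It passed at 1.34 ± 0.24 (adjusted p = 4.01e-04) and 2.28 ± 0.24 (adjusted p = 1.16e-06).

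Olfr202 was the exception in this family. Its signal was 7.47, 7.82, 7.06 and 6.59 in odor GFP+ against 10.94, 9.75, 8.56 and 9.95 in odor GFP- cells, and 8.64, 6.53, 7.03 and 6.55 in vehicle GFP+ against 10.03, 9.92, 9.84 and 8.60 in vehicle GFP- cells. The differences of -2.56 ± 0.50 (adjusted p = 0.00100) and -2.41 ± 0.50 (adjusted p = 0.00170) were negative, while the neighbouring Olfr201 and Olfr203 were positive. In the vehicle pools replicate 1 of GFP+ and replicate 4 of GFP- brought the fractions into overlap, whereas in the odor pools they did not overlap. Olfr194 and Olfr205 passed under both stimuli, at 1.22 and 1.51 for Olfr194 and 1.03 and 1.27 for Olfr205. Olfr206 passed in the vehicle pools alone at 0.80 ± 0.27 (adjusted p = 0.0447), with 0.33 ± 0.27 (adjusted p = 0.400) in the odor pools, and the difference of the 2 did not pass (gain -0.47 ± 0.38, adjusted p = 0.999). Olfr204 and Olfr209 passed under neither, and Olfr204 passed in the vehicle pools with the pool block (adjusted p = 0.0253).

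Receptors next to each other did not all sort alike. In the long stretch the sort difference, averaged over both stimuli, differed by a median of 0.90 between 24 neighbouring pairs of the 25 receptors there, beside 1.26 over all 300 pairs. In the middle stretch it differed by 1.62 between 7 neighbouring pairs and by 1.52 over all 28. Olfr175 and Olfr180, both of MOR184 and on the same stretch, had the highest and the lowest odor sort difference of the 31. Of the 31, 7 have a MOR name ending in P, a suffix given to supposed pseudogenes although the RefSeq table lists these genes as protein coding: Olfr169, Olfr175, Olfr180, Olfr191, Olfr193, Olfr194 and Olfr205. 6 of these 7 were higher and 1 lower in GFP+ cells under each stimulus, beside 10 higher and 1 lower of the other 24. Olfr161 and Olfr172, whose signal lay near the negative controls, are among those 24, and the split by name was not tested.

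**Figure D3:**
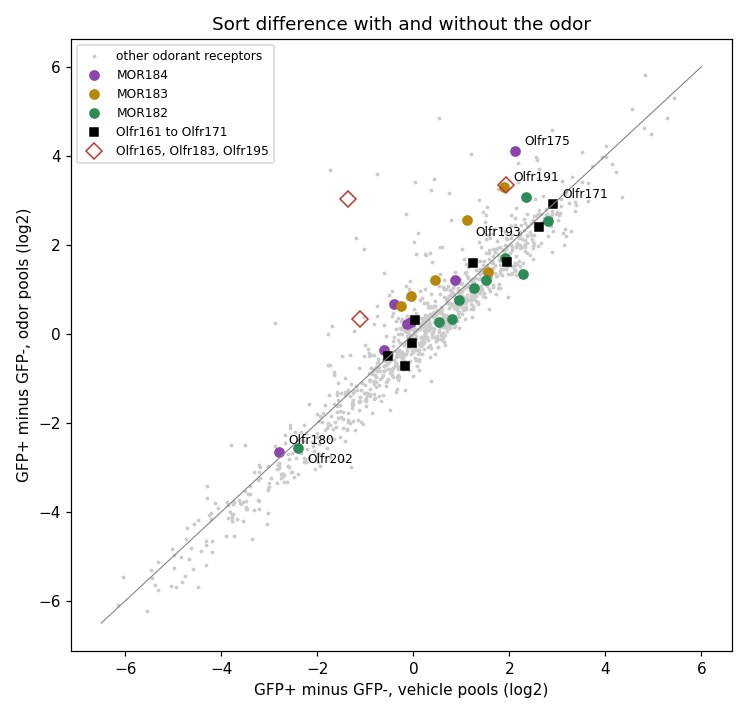
Sort difference, GFP+ minus GFP-, in the odor pools (vertical axis, log2) against that in the vehicle pools (horizontal axis, log2) for each receptor; grey points are the other odorant receptors of the array, coloured points the MOR184, MOR183 and MOR182 receptors, squares Olfr161 to Olfr171, open diamonds the 3 receptors left out, and the line marks equal values. Olfr175, Olfr191 and Olfr193 lie above the line, as do the 3 diamonds, while Olfr171, Olfr180 and Olfr202 lie close to it.

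The gain is the sort difference of the odor pools minus that of the vehicle pools. It asks for which receptors the signal difference between the fractions changed with the odor. None of the 31 receptors passed in either direction (limma, adjusted p under 0.05). Of them 6, or 19.4%, had an unadjusted p under 0.05, beside 4.65% of all tested probe sets. At the adjusted threshold 0.063% of all tested probe sets, or 14, passed with a positive gain, and 0 passed with a negative gain. The 3 receptors left out of the set each passed in at least 1 odor comparison, so a count of 0 among the remaining 31 is shaped by the way the set was drawn. Olfr195, which is of MOR184, had a gain of 4.40 ± 0.44 (adjusted p = 9.95e-05). Olfr183 of MOR183 was higher with the odor in GFP+ cells by 1.37 ± 0.23 (adjusted p = 0.0228). Olfr165 of MOR279 was lower with the odor in GFP- cells, with a difference of -2.47 ± 0.32 (adjusted p = 0.00273).

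The highest gains of the 31 belonged to Olfr175, Olfr193 and Olfr191. Olfr175 had pool differences of 3.55, 4.47, 3.66 and 4.75 with the odor against 1.91, 2.36, 2.28 and 1.93 with vehicle, which do not overlap, and a gain of 1.99 ± 0.37 (adjusted p = 0.0794). With the pool block the adjusted p of Olfr175 was 0.0361, past the threshold, and over the 16 alternatives run it lay between 0.00409 and 0.348. Olfr191 had 3.03, 3.60, 3.17 and 3.37 with the odor against 2.32, 1.66, 2.15 and 1.41 with vehicle and a gain of 1.41 ± 0.26 (adjusted p = 0.0733). Olfr193 had 2.21, 2.73, 2.32 and 2.92 against 1.73, 0.70, 1.33 and 0.67 and a gain of 1.44 ± 0.30 (adjusted p = 0.177). The odor pools of these 2 receptors also lay above all their vehicle pools. Their adjusted p over the alternatives lay between 0.0208 and 0.351 for Olfr191 and between 0.00571 and 0.742 for Olfr193, so whether each passes depends on the setting. The most negative gain was that of Olfr203, -0.94 ± 0.33 (adjusted p = 0.937), from pool differences of 1.04, 2.27, 0.61 and 1.42 with the odor against 2.13, 1.85, 2.29 and 2.83 with vehicle.

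Counted by family, positive gains lay mostly in MOR184 and MOR183. Olfr193, with a gain of 1.44, was put in MOR183 by hand and is counted there. All 7 MOR184 receptors and 5 of the 6 MOR183 receptors had a positive gain, Olfr187 being the exception at -0.16, whereas 9 of the 10 MOR182 receptors had a negative one, Olfr199 being the exception at 0.73. The median gain was 0.34 for MOR184, 0.89 for MOR183, -0.26 for MOR182 and -0.01 for the middle stretch, beside -0.17 over all receptors, of which 370 of 1080 were positive. In every one of the alternatives run, 5 of the MOR184 and 5 of the MOR183 receptors kept a positive gain and 6 of the MOR182 receptors a negative one. These counts are a description with no test: the receptors share arrays, and relatives within a family may share probe signal. The gains of Olfr177 and Olfr186, 1.07 (unadjusted p = 0.00798, adjusted p = 0.891) and 0.88 (unadjusted p = 0.0423, adjusted p = 0.999), did not pass.

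**Figure D4:**
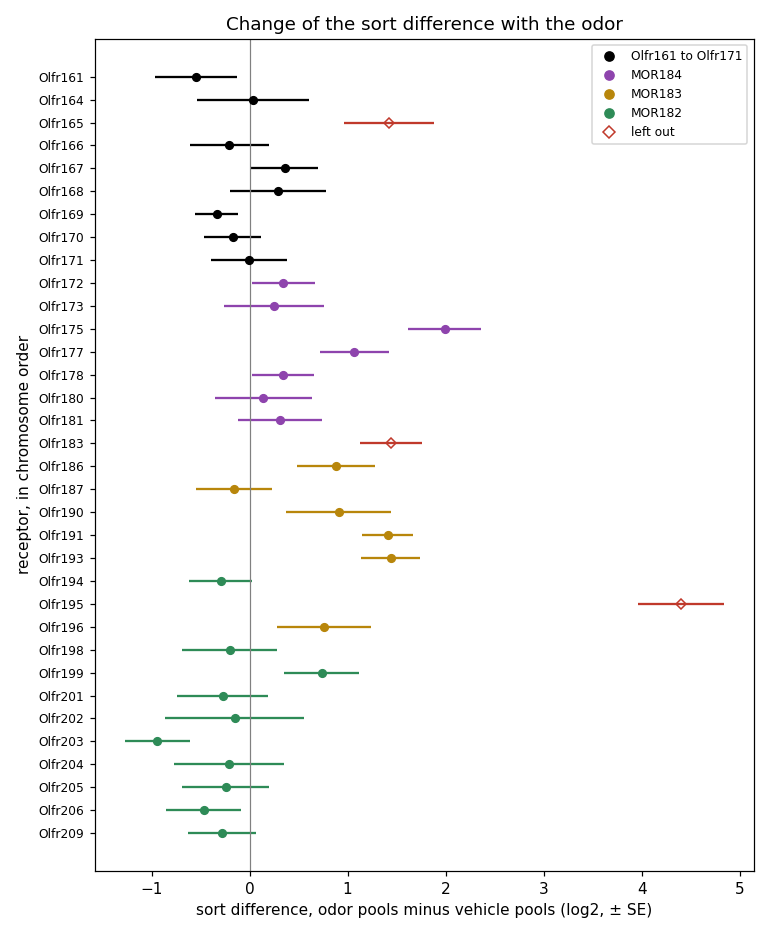
Gain of each receptor, the sort difference with the odor minus that with vehicle (log2, horizontal axis, ± SE of the fit), in chromosome order (vertical axis); filled points are the 31 receptors coloured by family and open diamonds the 3 left out. All 7 MOR184 points and 5 of 6 MOR183 points lie right of 0 and 9 of 10 MOR182 points left of it, and none of the filled points passed the test.

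Odor was then set against vehicle within each fraction, which gives both sides of the gain. In GFP+ cells none of the 31 passed in either direction (limma, adjusted p under 0.05; 4 at an unadjusted p under 0.05, beside 7.15% of all probe sets), where 0.0766% of all probe sets passed as higher and 0 as lower. The arrays of Olfr175, Olfr177 and Olfr199 lay higher with the odor without overlap, a pattern that 1.75% of all probe sets showed, with the reverse in 1.1%. The 3 with the smallest p were Olfr193 at 0.79 ± 0.21 (adjusted p = 0.414), Olfr191 at 0.52 ± 0.18 (adjusted p = 0.571) and Olfr177 at 0.69 ± 0.25 (adjusted p = 0.577). In GFP- cells none passed either (limma; 4 at an unadjusted p under 0.05, beside 2.61% of all probe sets), with 0.00901% higher and 0.0405% lower over all probe sets. Here the odor arrays of Olfr175, Olfr191 and Olfr193 lay below the vehicle arrays without overlap, which 1.37% of all probe sets showed (1.24% the reverse), at -1.39 ± 0.26 (adjusted p = 0.105), -0.89 ± 0.18 (adjusted p = 0.188) and -0.65 ± 0.21 (adjusted p = 1.000). For Olfr175 and Olfr191 the difference in GFP- cells was larger in size than that in GFP+ cells, which was 0.60 and 0.52, while for Olfr193 it was smaller. The arrays of each fraction are shared between the comparisons, so these values are not independent of the gain.

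**Figure D5:**
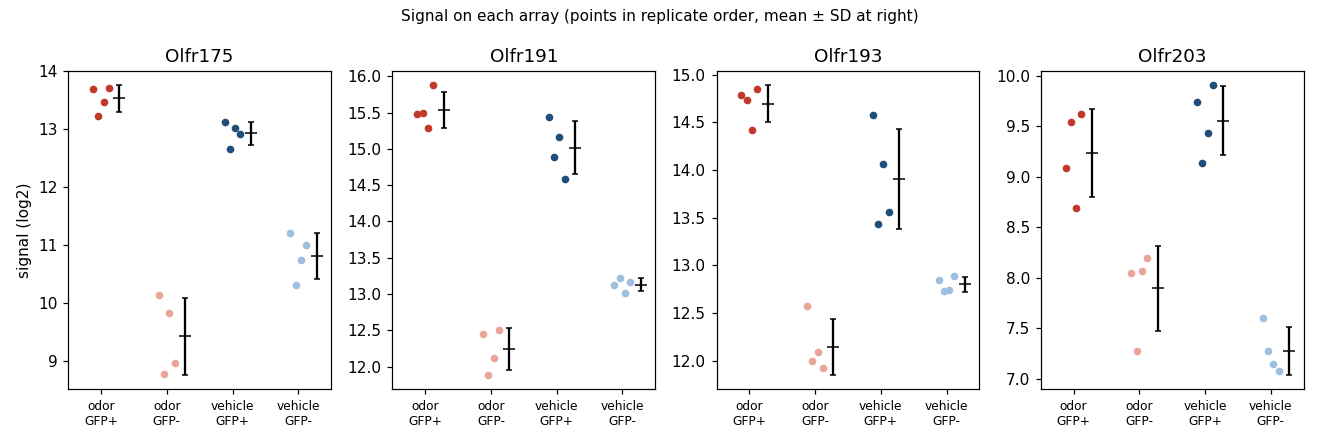
Signal (log2, vertical axis, a separate scale for each receptor) of Olfr175, Olfr191, Olfr193 and Olfr203 on each array of the 4 groups (horizontal axis); points are arrays in replicate order and the bar at the right of each group is the mean ± SD of 4. In odor GFP- cells the 4 arrays of Olfr175, Olfr191 and Olfr193 all lie below the 4 vehicle GFP- arrays, and those of Olfr203 lie higher in all but replicate 2.

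The receptors with the highest and the lowest sort difference averaged over both stimuli were set against all other probe sets over the 16 arrays. The pattern of Olfr175, the highest, was most like that of Olfr491 (r = 0.981), Olfr191 (r = 0.971) and Olfr1262 (r = 0.970). That of Olfr180, the lowest, was most like that of Calb2, which encodes the calcium-binding protein calretinin (r = 0.978), Olfr117 (r = 0.976) and Olfr1477 (r = 0.974). These correlations are over arrays that differ mainly by sort fraction and were picked as the highest of all probe sets, so they are a description.

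Genes of receptor signalling, which all these neurons share, were counted in the same way. Of 15 signalling list genes, 6 were higher and 1 lower in GFP+ cells in the odor pools, with a median difference of 0.17. In the vehicle pools 2 were higher and 1 lower, with a median of 0.18. Over all tested probe sets 11.3% were higher and 11.9% lower in the odor pools, and 9.34% and 11.8% in the vehicle pools. Pde1c, a phosphodiesterase that degrades cyclic AMP in cilia, was higher by 0.60 and 0.69 in the odor and vehicle pools. Ano2, the calcium-activated chloride channel, was higher by 0.48 and 0.36. The gene counted as lower was Grk3, a kinase that phosphorylates active receptors, whose group means of 5.36, 6.17, 5.39 and 6.20 in odor GFP+, odor GFP-, vehicle GFP+ and vehicle GFP- cells all lay below the negative control median. No size is given for it. Of 17 genes of receptor choice and trafficking, 4 were lower in the odor pools, and 1 was higher and 3 lower in the vehicle pools. The same shares of all probe sets stand beside these counts. Lbr, the lamin B receptor, which is silenced as these neurons mature, differed by -1.89 and -1.89. Reep1, a receptor accessory protein, passed in the vehicle pools at 0.54.

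Markers of several cell types other than mature neurons also moved with the sort. All 6 neutrophil markers were lower in GFP+ cells under both stimuli, with the log2 of their summed signal at 9.94 to 12.08 in odor GFP+ against 18.32 to 19.19 in odor GFP- cells, and 9.85 to 11.22 in vehicle GFP+ against 18.80 to 19.21 in vehicle GFP- cells. Of the 6 immature neuron markers 5 were lower under both stimuli, with summed signal of 15.63 to 15.85 in odor GFP+ against 16.18 to 16.70 in odor GFP- cells, and 15.72 to 15.96 in vehicle GFP+ against 16.29 to 16.74 in vehicle GFP- cells. Of the 8 mature neuron markers 1, Ano2, was higher under both stimuli. The list had medians of 0.10 and 0.16, smaller than the receptor median of the 31. Its median signal by array was 16.82 to 17.22, where the highest value on any array was 18.85. Whether so high a signal narrows the differences was not tested. All 4 microvillar, all 3 B lineage and all 3 measured globose basal markers were lower too, as was the 1 measured erythroid marker. In the odor and vehicle pools, 2 and 1 of 4 sustentacular and 1 and 2 of 3 Bowman's gland markers were lower. Of 4 macrophage markers 2 were lower under each stimulus, and of 2 ensheathing glia markers 1 in the odor pools only. None of the 3 horizontal basal cell markers passed. Over all tested probe sets 11.9% were lower in the odor and 11.8% in the vehicle pools. The part of these other cells in the sort differences of the receptors was not tested.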

How the data were processed

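Clariom S arrays were hybridised with biotinylated cRNA of sorted cells. The values are log2 signals as deposited by the authors. Per the submitters' processing notes they were made with Affymetrix Expression Console; the version, the algorithm, the normalization and the array's genome build are, in the sources used here, not given. Of 28846 features, 22206 outside the control classes were tested, with no further scaling or filter.

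A linear model with a mean for each of the 4 groups was fitted over the 16 arrays (limma 3.58.1, lmFit and eBayes; R 4.3.3). It gave 5 comparisons: the gain, the sort difference of the odor pools and of the vehicle pools, and the odor effect within GFP+ and within GFP- cells. Tests were two-sided, adjusted by Benjamini-Hochberg over the 22206 probe sets, and passed under 0.05. The fit was tested on simulated data. The number of arrays limits the precision, and p-values measure the spread between pools. GFP+ and GFP- arrays with the same stimulus and replicate number were taken as fractions of 1 pool. Deviations from the group means correlated with r from 0.0119 to 0.224 between fractions of a pool. Between odor and vehicle arrays of the same number r was 0.0311 to 0.256 for GFP+ cells and 0.186 to 0.290 for GFP- cells. Blocks for pool and number were run as alternatives, with other scalings, array weights, an intensity trend, a filter at the negative control median and each replicate left out.

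The receptors and gene lists were chosen with earlier results of these data known. Named with values per comparison were up to 8 highest and 8 lowest receptors among those that passed, or the 3 with the smallest p where fewer than 3 passed. Olfr165, Olfr183, Olfr195, S100a5, Omp and the most alike probe sets were always given. Sequence windows were aligned with Biopython 1.88. Protein sequences were not used here.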

Additional observations from a re-analysis of the deposited data

Results flagged for a closer look

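Of 124 checks, 1 for each receptor and group of 4 arrays, 5 found an array far from the other 3, all in GFP- groups. Chance marks about 1 in 20 such groups. In odor GFP- cells, replicate 2 was low for Olfr167, at 11.31 where the others had 11.75 to 11.80, and for Olfr203, at 7.28 where the others had 8.05 to 8.20. In vehicle GFP- cells, Olfr180 was high in replicate 1, at 12.69 where the others had 12.02 to 12.13. Olfr190 was high in replicate 3 of the same group, at 9.94 where the others had 9.12 to 9.25. Olfr202 was low in replicate 4, at 8.60 where the others had 9.84 to 10.03.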

How the results depend on the processing

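No receptor that passed turned its direction under any alternative run. Of the 18 receptors that passed in each sort comparison, 16 passed in all 12 alternatives for that comparison. The exceptions were Olfr196 and Olfr205 in the odor pools and Olfr178 and Olfr206 in the vehicle pools, where Olfr196 and Olfr205 were lost without odor replicate 2, 3 or 4, Olfr178 without vehicle replicate 3 or 4, and Olfr206 without vehicle replicate 1, 3 or 4 and with receptor medians set equal. The count of receptors with a passing positive gain, 0 as reported, was 3 with receptor medians set equal, 1 with an intensity trend and robust prior, 1 with the pool of mice as a replicate block and 0 to 2 with a replicate left out. The gains that passed were those of Olfr175, Olfr191 and Olfr193. Without odor replicate 1 Olfr175 passed (gain 2.17, adjusted p = 0.0368), and without vehicle replicate 1 Olfr191 (1.55, adjusted p = 0.0491) and Olfr193 (1.65, adjusted p = 0.0265) did. The count lower with the odor in GFP- cells, 0 as reported, was 1 with receptor medians set equal, 2 with array weights and 0 to 1 with a replicate left out, the 1 being Olfr175 without odor replicate 1. The cause of these moves was not tested. The pairing by pool raised the sort counts of higher receptors to 18 in the odor and 17 in the vehicle pools and changed no call other than those given beside the results. Pairing by replicate number, as a replicate block, changed no count in the odor comparisons within a fraction.

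Setting array medians equal moved the median sort difference of all probe sets by 0.33 in the odor and 0.35 in the vehicle pools. Then 23 and 19 of the 31 were higher, beside 13098 and 13003 of all 22206 probe sets. The rise in these counts was therefore not particular to the 31. Setting receptor medians equal moved the median sort difference of all probe sets by -0.06 and -0.23. Here 16 and 15 of the 31 were higher, beside 865 and 515 of all probe sets. The median gain moved by 0.17. Both settings kept 2 of the 31 lower. The sort differences hold relative to the deposited scale, and no absolute amount of RNA was measured. Signal over background limits Olfr161 and Olfr172 in most groups, Olfr173 and Olfr202 in vehicle GFP+ replicate 2, and Grk3 in the signalling list.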
